A study of Homo sapiens with 4 samples.

Results

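The genes described here are 10 regulators of the passage from G1 into S phase: the D-type cyclins CCND1, CCND2 and CCND3, the E-type cyclins CCNE1 and CCNE2, the kinases CDK4 and CDK6, the retinoblastoma gene RB1, and the CDK inhibitors CDKN1B and CDKN2C. They were taken by symbol from the 58174 genes of the deposited tables, and all 10 were found and had enough counts to be tested. RNA-seq had been run on total RNA of Daoy cells, an established line from a human medulloblastoma of the cerebellum. Of the 4 libraries, 2 were labelled wild type and 2 EED-knockout. The EED protein belongs to the core of Polycomb repressive complex 2 and is needed for its silencing mark H3K27me3. The labels name no treatment, and give neither the way EED was disrupted nor the origin of the replicates (culture, clone or RNA sample). All p-values therefore rest on a spread between libraries that may be technical.

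In G1, D-type cyclins bind CDK4 or CDK6 and begin the phosphorylation of RB, which otherwise holds E2F transcription factors in check. Released E2F raises the E-type cyclins, which activate CDK2 and complete the phosphorylation. Inhibitors of the INK4 family, such as the product of CDKN2C, bind CDK4 and CDK6, and those of the Cip/Kip family, such as the product of CDKN1B, bind cyclin-CDK complexes. In the cerebellum, hedgehog signalling keeps granule neuron progenitors cycling through D-type cyclins, and loss of CDKN2C favours medulloblastoma in mice.

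Library totals ranged from 17836112 to 19106382 estimated counts. EED messenger, with counts of 626 and 500 (wild type) against 340 and 490 (knockout), was lower in both knockout libraries but did not pass the test (log2 fold change -0.49, 95% interval -1.12 to 0.13, edgeR adjusted p = 0.878). A coding lesion need not lower the messenger, so its level does not check the labels. Of 9 genes of the granule neuron lineage, ATOH1 had 0 counts in all 4 libraries, NEUROD1 at most 5 and BARHL1 at most 8. ZIC1 had 356 to 605 counts, ZIC2 330 to 550, PAX6 311 to 383, GLI2 394 to 619 and PTCH1 585 to 861. GLI1 had 11 and 5 (wild type) against 28 and 23 (knockout) (edgeR adjusted p = 0.823). Of 7 neuronal genes, TUBB3 had 1619 to 2509 counts, and MAP2 5 and 6 (wild type) against 34 and 19 (knockout) (edgeR adjusted p = 0.799). Of these 7, 4 had a log2 fold change above 0 and 3 below (SYT1 -0.32, SYP -0.03 and SNAP25 -0.03). GLI1 and MAP2, both at few counts, were the only genes of these lists with an unadjusted p under 0.05. Of 6 blood and immune genes, the lysosomal gene CD68 had 400 to 763 counts and the others at most 10. Of 4 epithelial genes, EPCAM and CDH1 had at most 13 counts, while the keratins KRT14 (142) and KRT5 (46) were highest in knockout 2, against at most 33 and 9 in the other libraries. Of 7 mesenchymal and stem-like genes, FN1 (7091 to 12020 CPM), VIM (3747 to 4320 CPM) and COL1A1 (1920 to 3018 CPM) were high and NES, COL3A1, LUM and DCN were at most 8.11 CPM, and edgeR called 0 of the 7. Over all 18349 genes tested, edgeR's quasi-likelihood test called 0 at an adjusted p under 0.05, while 1082 had an unadjusted p under 0.05. DESeq2 called 26 higher and 42 lower.

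None of the 10 genes was called by edgeR at the threshold of 0.05, against a background of 0% of all genes, and none by DESeq2. The gene with the largest difference was CDKN2C, at 1.56 times its wild type level in knockout libraries, followed by CCND2 (1.32 times) and CCND1 (0.792 times). Levels are given here in CPM, counts brought to a common library total with TMM factors, and are compared between libraries for 1 gene at a time. For CCND2, CDKN1B and CDKN2C the knockout values all exceeded the wild type values, 3 of 10 genes against 17.8% of all genes tested. For CCND1 they were all lower, 1 of 10 against 18.0%. The other 6 genes overlapped between genotypes, and the median log2 fold change of the 10 was 0.02, against 0.01 for all genes tested. With 2 libraries against 2, an exact permutation test of a single gene cannot go below p = 0.33.

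**Figure D1:**
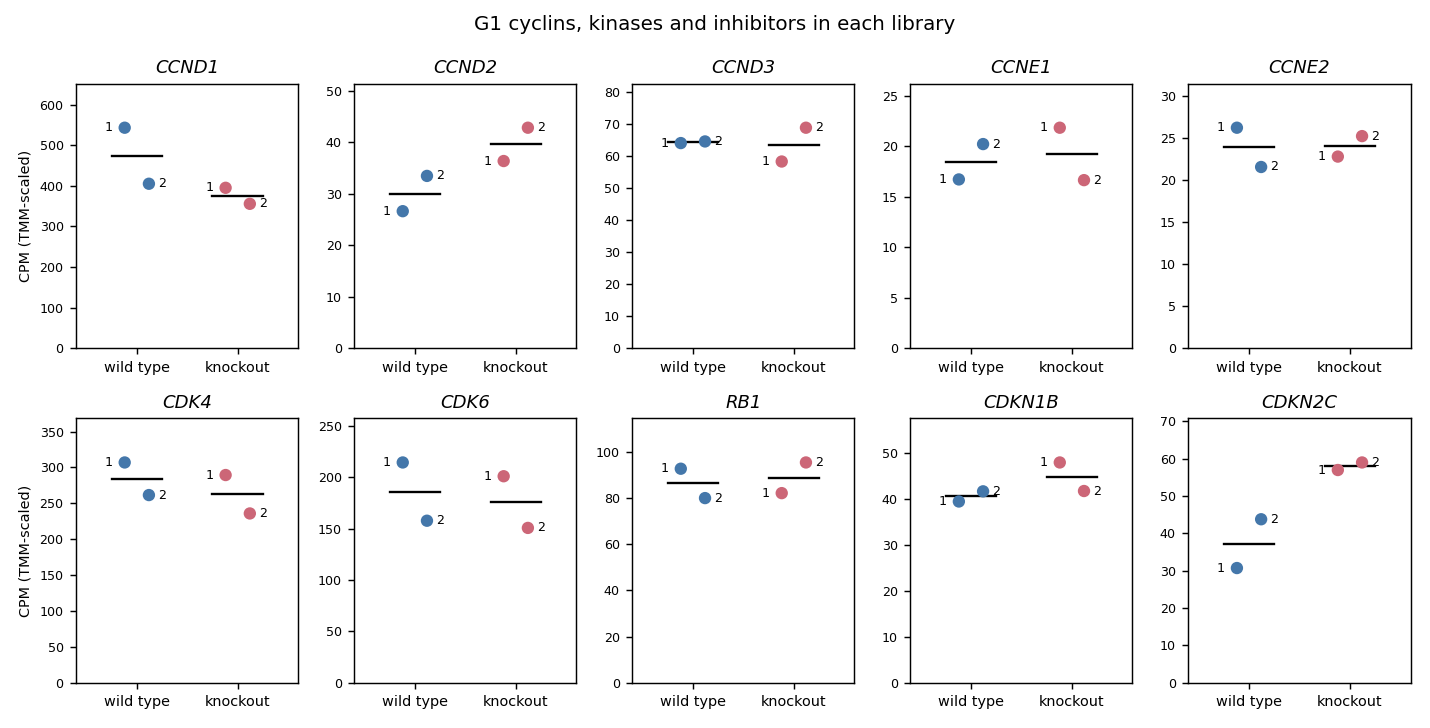
Level of each gene in CPM scaled by TMM factors (y axis, from 0, own scale per panel) in wild type (blue) and knockout (red) libraries; the number beside a point is the replicate and the bar is the mean of 2. CDKN2C is at 30.7 and 43.8 (wild type) against 56.9 and 58.9 (knockout), while most other genes overlap.

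CDKN2C (ENSG00000123080, GRCh38 chromosome 1, 50960745 to 50974633, plus strand) encodes an INK4 inhibitor of CDK4 and CDK6. Its counts were 559 and 793 (wild type) against 1083 and 1106 (knockout). In CPM these were 30.7 and 43.8 against 56.9 and 58.9, with means of 37.2 ± 9.23 and 57.9 ± 1.42 (SD, n = 2 each). The knockout libraries were close to each other and both were above the wild type libraries, which differed between themselves by 0.51 on the log2 scale. The log2 fold change was 0.64 (95% interval 0.10 to 1.18; edgeR unadjusted p = 0.0274, adjusted p = 0.808). Among the 10 genes it was the only one with an unadjusted p under 0.05, which 2.85% of all genes had in the higher direction and 3.05% in the lower. Without wild type 1 the log2 fold change was 0.41, and without wild type 2 it was 0.91. In RNA from whole cultures, more messenger per cell and more cells in a phase that holds it cannot be told apart.

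The files list 3 transcripts of CDKN2C with different starts, and nearly all counts belonged to 1 of them. CDKN2C-201 (ENST00000396148.1, start at 50968695) held 95% to 97% of the gene's counts in each library, with 531 and 759 estimated counts (wild type) against 1029 and 1073 (knockout). CDKN2C-001 (ENST00000262662.5), which starts upstream at 50960745, had 15.9 and 15.6 counts (wild type) against 18.6 and 6.16 (knockout). CDKN2C-002 (start at 50969944) had 11.7 and 17.9 against 35.4 and 26.8. In a fit over all transcripts the log2 fold change of CDKN2C-201 was 0.65 (95% interval -0.00 to 1.3, edgeR adjusted p = 1.0). That of CDKN2C-002, at far fewer counts, was 0.98 (95% interval -0.63 to 2.59, edgeR adjusted p = 1.0), and that of CDKN2C-001 was -0.42 (95% interval -2.65 to 1.81, edgeR adjusted p = 1.0).

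Because nearly all counts of CDKN2C were assigned to 1 start, the bases just before these starts are shown, from the RefSeq promoter windows of GRCh38.p14, cut where the GENCODE transcript begins. Capitals mark a 7-letter core of the E2F motif, read on both strands. The window before CDKN2C-201 is chr1:50968456-50968694 on the plus strand, and that before CDKN2C-001 is chr1:50960495-50960744 on the same strand. The former lies within the span of CDKN2C-001.
CDKN2C-201 start: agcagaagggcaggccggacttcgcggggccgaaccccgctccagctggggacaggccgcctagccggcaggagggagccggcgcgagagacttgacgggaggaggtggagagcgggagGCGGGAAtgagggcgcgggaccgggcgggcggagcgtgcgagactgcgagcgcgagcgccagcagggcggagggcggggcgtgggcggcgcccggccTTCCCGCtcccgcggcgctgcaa
CDKN2C-001 start: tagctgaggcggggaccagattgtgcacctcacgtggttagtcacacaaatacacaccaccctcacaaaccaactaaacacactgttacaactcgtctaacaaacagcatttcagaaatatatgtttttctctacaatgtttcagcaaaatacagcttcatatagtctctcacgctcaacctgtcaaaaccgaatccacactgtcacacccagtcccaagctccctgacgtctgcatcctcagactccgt

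The sequence before the start of CDKN2C-201 was rich in G and C (77.4% of 239 bases, with 34 CpG dinucleotides) and that before the upstream start was not (45.6% of 250 bases, with 7). The full E2F motif, searched as TTTCCCGC, TTTCGCGC, TTTGCCGC and TTTGGCGC on both strands, was in none of the 12 RefSeq windows of 300 bases (250 before and 50 after a start) that matched 7 of the 10 genes, in 3.31% of 35116 windows of all genes and in 37.5% of 24 windows of 15 E2F target genes. The core without the first T, which was searched after the full motif gave no match and is contained in it, was in 1 of the 12 windows, at the start of CDKN2C-201, where it occurred on each strand. It was in 13% of all windows and in 54.2% of those of E2F target genes. The first letters of the matches lay 120 and 23 bases from the end of the printed sequence. A match describes these letters only. The 12 windows belong to CDKN2C, CCND3, CDK6, CDKN1B, CDK4, RB1 and CCNE1. The only window of RB1 (48476200 to 48476499) lies far inside the gene. RB1-002, the transcript with nearly all counts of RB1, starts at 48303726, and the bases before that start were not searched.

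CDKN1B (ENSG00000111276, chromosome 12, 12715058 to 12722371), the Cip/Kip inhibitor of the set, had 718 and 755 counts (wild type) against 912 and 783 (knockout). In CPM it stood at 39.4 and 41.7 against 47.9 and 41.7, and knockout 2 was barely above wild type 2. The log2 fold change was 0.15 (95% interval -0.32 to 0.61, edgeR adjusted p = 0.949), and 0.04 without knockout 1 and 0.24 without knockout 2. All of its counts belonged to the transcript CDKN1B-001.

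Among the D-type cyclins, the regulatory subunits of CDK4 and CDK6, CCND1 lay lower and CCND2 higher in knockout libraries, and CCND3 did not separate the genotypes. CCND1 (ENSG00000110092, chromosome 11, 69641087 to 69654474) had 9894 and 7347 counts (wild type) against 7521 and 6678 (knockout), or 544 and 405 against 395 and 356 CPM. Wild type 1 stood apart, and wild type 2 was close to knockout 1. The log2 fold change was -0.34 (95% interval -0.85 to 0.18, edgeR adjusted p = 0.887). It was -0.11 without wild type 1, -0.54 without wild type 2 and -0.16 in a limma fit on log2(TPM + 1), a scale on which the genotypes overlapped (188 and 164 TPM in wild type, 170 and 146 in knockout libraries). TPM is kallisto's abundance per effective length of each transcript, scaled to a common total. CCND1 overlaps LTO1 on the opposite strand (359 to 438 counts), and the labels do not say whether strand was recorded.

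CCND2 (ENSG00000118971, chromosome 12, 4273772 to 4305350) had 484 and 606 counts (wild type) against 691 and 803 (knockout), or 26.6 and 33.4 against 36.3 and 42.8 CPM. Both knockout libraries were above both wild type libraries, by a margin smaller than the gap within either genotype. The log2 fold change was 0.40 (95% interval -0.13 to 0.92, edgeR adjusted p = 0.881), 0.24 without wild type 1 and 0.62 in a limma fit on log2(TPM + 0.1). In TPM summed over transcripts, knockout 1 (10.7) exceeded knockout 2 (9.79), in the reverse order of the counts: 2.00 counts of the short transcript CCND2-003 were worth 2.00 TPM there. The full-length transcript CCND2-001 held at least 99.4% of the gene's counts and stood at 5.4 and 7.57 TPM (wild type) against 8.21 and 9.79 (knockout).

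CCND3 (ENSG00000112576, chromosome 6, 41934933 to 42050357) had 1166 and 1170 counts (wild type) against 1109 and 1292 (knockout), or 64.1 and 64.6 against 58.3 and 68.9 CPM. The wild type values lay between the knockout values. Its log2 fold change was -0.02 (95% interval -0.47 to 0.44, edgeR adjusted p = 0.995). Genes within 5 Mb of CCND3 also differed between the knockout libraries, with a median deviation from wild type of -0.31 in knockout 1 and 0.05 in knockout 2 on the log2 scale (64 genes), and the part of this in the values of CCND3 was not tested. For CCND1 the 125 neighbours deviated by 0.33 and 0.12, upward, whereas CCND1 was lower in both knockout libraries. The 49 neighbours of CDKN2C deviated by 0.11 and -0.03, and the 69 of CCND2 by 0.25 and 0.01. The 28 of CDKN1B deviated by 0.33 (knockout 1) and -0.17 (knockout 2), the order of the CDKN1B levels in these libraries, and their part in those levels was not tested.

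**Figure D2:**
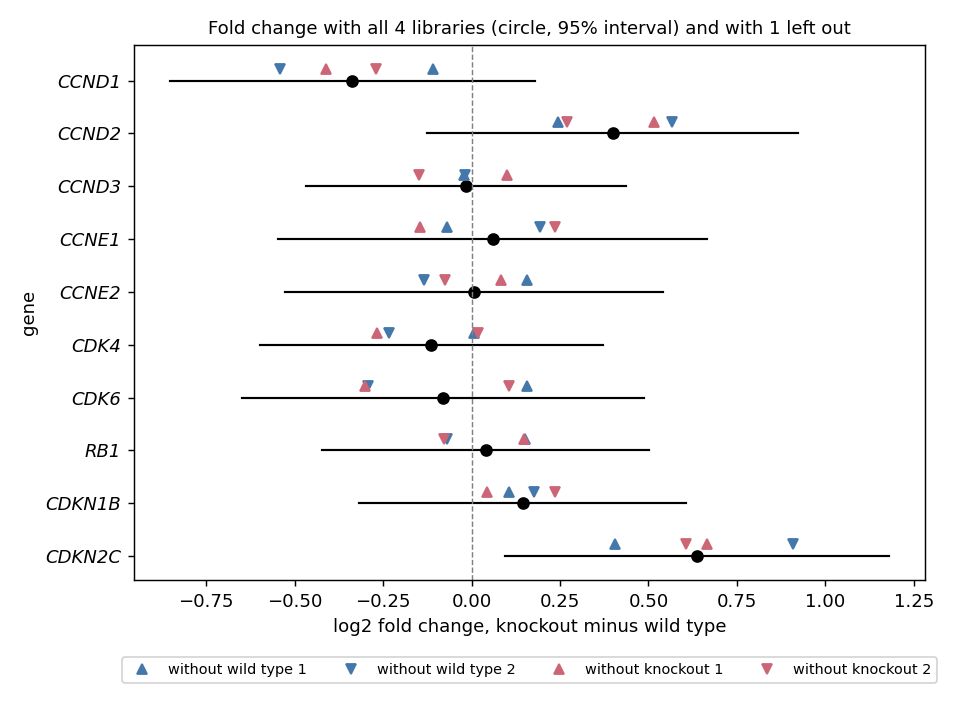
Log2 fold change of knockout against wild type (x axis) for each gene (y axis): black circles and lines are the estimate and 95% interval from all 4 libraries, and triangles the estimates with 1 library left out. Only the interval of CDKN2C, from 0.10 to 1.18, lies wholly on 1 side of 0, and for 6 genes the triangles fall on both sides.

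The E-type cyclins, activators of CDK2, were close between genotypes. CCNE1 (ENSG00000105173, chromosome 19, 29811898 to 29824308) had 304 and 366 counts (wild type) against 415 and 312 (knockout), a log2 difference of 0.06 (95% interval -0.55 to 0.67, edgeR adjusted p = 0.985). CCNE2 (ENSG00000175305, chromosome 8, 94879770 to 94896678) had 478 and 391 against 434 and 474 counts, a log2 difference of 0.01 (95% interval -0.53 to 0.54, edgeR adjusted p = 0.998). In both genes the libraries of the genotypes interleaved. CCNE2 overlaps INTS8 (884 to 1049 counts) and NDUFAF6 (275 to 429 counts) on the opposite strand. The 29 neighbours of CCNE1 within 5 Mb deviated from wild type by medians of 0.18 (knockout 1) and -0.44 (knockout 2), and the 33 of CCNE2 by -0.13 and -0.44, and their part in these values was not tested. In TPM summed over transcripts the genotypes separated for CCNE2, and likewise for RB1, with the knockout values higher. In the transcript with the most counts they overlapped for both genes. CCNE2-201 stood at 11.72 and 12.25 TPM (wild type) against 11.88 and 11.64 (knockout). RB1-002 stood at 27.9 and 26.62 TPM against 27.36 and 32.41. In knockout 1, 28.01 counts of the short transcript CCNE2-008 were worth 6.688 TPM. The share of all genes that separate in summed TPM was not computed.

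Within CCNE1 the balance of transcripts differed more than the gene did. CCNE1-002 (ENST00000444983.6), which starts at 29812654, downstream of the leading CCNE1-001 at 29811898, held 11.5% and 16.5% of the gene's counts (wild type) against 27.1% and 28.8% (knockout). It had 35.0 and 60.4 estimated counts (wild type) against 112 and 89.9 (knockout). Its log2 fold change was 1.03 (95% interval -0.23 to 2.30, edgeR adjusted p = 1.0), so the difference did not pass the test over transcripts. CCNE1-001 had 239 and 279 counts against 286 and 211. CCNE1-002 was singled out after its values were seen, and the division of fragments between transcripts that share exons is kallisto's estimate.

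The kinases CDK4 and CDK6 varied more with the library than with the genotype. CDK4 (ENSG00000135446, chromosome 12, 57747727 to 57756013) had 5587 and 4739 counts (wild type) against 5505 and 4427 (knockout), and CDK6 (ENSG00000105810, chromosome 7, 92604921 to 92836594) 3904 and 2860 against 3826 and 2829. In each genotype the library numbered 1 was the higher one for both genes. The difference between the libraries of a genotype was 0.44 (wild type) and 0.42 (knockout) on the log2 scale for CDK6, with replicate 2 the lower. The 35 neighbours of CDK6 within 5 Mb deviated from the wild type mean by medians of 0.10 (knockout 1) and -0.26 (knockout 2). In wild type 1 and 2 these medians were -0.02 and 0.02, which mirror each other because the mean is their own. The 100 neighbours of CDK4 deviated by 0.13 (knockout 1) and -0.04 (knockout 2). The part of the neighbours in the values of these 2 genes was not tested. Log2 fold changes were -0.11 for CDK4 (95% interval -0.60 to 0.37, edgeR adjusted p = 0.964) and -0.08 for CDK6 (95% interval -0.65 to 0.49, edgeR adjusted p = 0.984). CDK4 overlaps TSPAN31 (190 to 288 counts) and MARCH9 (306 to 445 counts) on the opposite strand.

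RB1 (ENSG00000139687, chromosome 13, 48303726 to 48599436), whose protein is the substrate of these kinases, had 1688 and 1450 counts (wild type) against 1563 and 1791 (knockout). The genotypes overlapped in CPM, at 92.7 and 80.02 against 82.2 and 95.4. Its log2 fold change was 0.04 (95% interval -0.42 to 0.50, edgeR adjusted p = 0.986). The retained-intron transcript RB1-006 had 4.76 and 13.1 estimated counts (wild type) against 28.1 and 45.5 (knockout), against 1420 to 1745 for the coding transcript RB1-002. Its log2 fold change was 1.97 (95% interval -0.09 to 4.03, edgeR adjusted p = 1.0). RB1-006 was singled out after its values were seen. Of the 7 retained-intron transcripts of the 10 genes that could be tested, 6 had a log2 fold change above 0, and CCND1-006 (-0.73) did not. These 7 belong to CCND1, CDK4 and RB1 only, and the 95% interval of each included 0. The share above 0 among all retained-intron transcripts was not computed, so the count is no trait of these genes. Of the 81 transcripts of the 10 genes, 34 could be tested, edgeR called 0 (0% of all transcripts tested), and 0 had an unadjusted p under 0.05, which 4.64% of all 56858 transcripts tested had.

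Levels of different genes were compared per length, on the TPM of each gene's leading transcript, the one with the most counts. This transcript held at least 67.7% of a gene's counts in every library, and over 80% in each library for 8 of the 10 genes. CDK4 led with 146 to 183 TPM over the 4 libraries, followed by CCND1 with 120 to 168 TPM, and the ranges of these 2 overlapped. CCND3 (39.1 to 46.0 TPM), CDKN2C (18.9 to 39.7), RB1 (26.6 to 32.4), CDKN1B (20.7 to 27.7) and CDK6 (20.0 to 26.2) came next, each range overlapping that of its neighbour in this order, and all below CCND1. CCNE2 (11.6 to 12.3 TPM), CCNE1 (8.62 to 11.6) and CCND2 (5.4 to 9.79) were lowest, and CCNE2 lay above CCNE1 by the smallest of margins. On TPM summed over all transcripts the order had other gaps. CDK4 (250.5 to 304 TPM) then lay above CCND1 (146 to 188) without overlap, and CCND3 (46.6 to 57.7) above CDKN2C (20.1 to 41.9). CCNE2 (17.1 to 23.6 TPM) then overlapped CCNE1 (13.7 to 20.0), as well as genes ranked above it, and CCND2 (5.81 to 10.7) lay below both.

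CCND1 thus made up most of the D-type cyclin messenger. Its share of the summed TPM of the 3 D-type cyclins was 78.9% and 73.5% (wild type) against 73.7% and 68.3% (knockout). That of CCND2 was 2.54% and 4.10% against 4.56% and 5.56%. CCND2 took a larger share in both knockout libraries, while the CCND1 share of knockout 1 lay just above that of wild type 2. CCND1 exceeded CCND2 31.1-fold and 17.9-fold in wild type and 16.1-fold and 12.3-fold in knockout libraries.

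CDK4 held 87.3% to 88.8% of the summed TPM of CDK4 and CDK6 in all 4 libraries, a narrower range in percentage points than the share of any D-type cyclin. CDKN2C stood at 9.07% and 15.7% of the summed TPM of its targets CDK4 and CDK6 in wild type, and at 18.5% and 23.9% in knockout libraries. CDKN1B stood at 9.95% and 12.9% (wild type) against 13.4% and 14.5% (knockout). On TPM summed over all transcripts of each gene these shares were smaller. That of CDKN2C was then 6.86% and 10.8% against 12.3% and 15.2%, still without overlap, and that of CDKN1B was 7.07% and 8.36% against 8.23% and 8.69%, with overlap. The ratio of CDKN2C to CDKN1B was 0.911 and 1.22 (wild type) against 1.38 and 1.65 (knockout), without overlap on the leading transcripts. These shares were given no test.

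**Figure D3:**
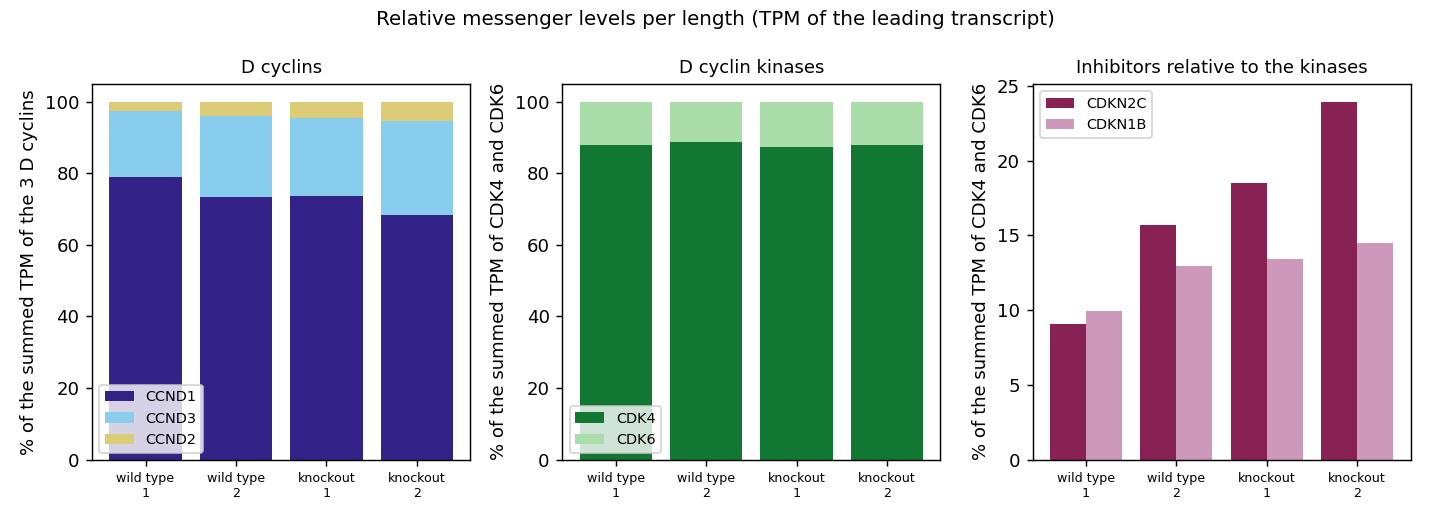
Shares of summed TPM in each library (y axes in percent, from 0; leading transcript of each gene): the 3 D-type cyclins, CDK4 and CDK6, and the inhibitors CDKN2C and CDKN1B relative to the sum of CDK4 and CDK6. CCND1 holds 68.3% to 78.9% of the D-type cyclins, and CDKN2C stands at 9.07% and 15.7% (wild type) against 18.5% and 23.9% (knockout).

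The rest of the G1/S pathway was read from lists of its parts, and edgeR called 0 genes of each list. The 12 RB-family, E2F and DP genes had a median log2 fold change of 0.08 (0.01 for all genes tested), with 7 above 0 and 5 below. E2F1, an activator of S phase genes, had 647 and 698 counts (wild type) against 950 and 971 (knockout) (log2 fold change 0.46, edgeR adjusted p = 0.834). E2F8, a repressor of the same family, had 390 and 307 against 511 and 559 counts (0.56, edgeR adjusted p = 0.834). These were the 2 genes of this list with an unadjusted p under 0.05, both higher.

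The other CDK inhibitors went in both directions, with a median log2 fold change of -0.02 over 4 tested. CDKN2D, a further member of the INK4 family, had 99 and 97 counts (wild type) against 161 and 217 (knockout), a log2 fold change of 0.89 (95% interval 0.14 to 1.64, edgeR adjusted p = 0.808). It was the only one of the 4 with an unadjusted p under 0.05. CDKN1A, a Cip/Kip inhibitor with more counts, was lower in both knockout libraries, with 2281 and 1973 counts (wild type) against 1365 and 1870 (knockout). Its log2 fold change was -0.45 (95% interval -0.98 to 0.08, edgeR adjusted p = 0.865), and it was named after its values were seen. No fragment was assigned to CDKN2B, like CDKN2D of the INK4 family, in any library. A count of 0 leaves room for 0.157 to 0.168 CPM (here on library totals without TMM factors), counting error only.

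CDK7 and CCNH, the kinase and cyclin that activate CDKs, and SKP1, a core part of the SCF ubiquitin ligases that degrade cyclin E and CDKN1B, lay lower. CDK7 had 1602 and 1124 counts (wild type) against 627 and 1031 (knockout) (log2 fold change -0.77, edgeR adjusted p = 0.810), and CCNH 995 and 910 against 605 and 709 (-0.59, edgeR adjusted p = 0.808). SKP1 had 5130 and 4294 against 3303 and 3005 counts (-0.64, edgeR adjusted p = 0.799). All 3 lie on the long arm of chromosome 5, where 443 genes beyond 50 Mb had a median log2 fold change of -0.39, and their neighbours within 5 Mb had medians of -0.55 (CDK7), -0.52 (CCNH) and -0.30 (SKP1). The part of the chromosome in these values was not tested. Their lists, 7 genes around CDK2 and 8 of ubiquitin ligases, had medians of -0.10 and -0.12.

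E2F target genes, which respond to the pathway's output, lay mostly above 0. Of 18 genes, 13 had a log2 fold change above 0, where 50.9% of all genes tested did, with a median of 0.26. The knockout values all exceeded the wild type values in 10 of them (17.8% of all genes), and were all lower in 1 (18.0%). TK1, the thymidine kinase of S phase, had 1069 and 1307 counts (wild type) against 2097 and 1832 (knockout) (log2 fold change 0.67, edgeR adjusted p = 0.799), the only one with an unadjusted p under 0.05. The 134 neighbours of TK1 within 5 Mb had a median log2 fold change of 0.23. They deviated from wild type by 0.15 (knockout 1) and 0.31 (knockout 2), and their part in the values of TK1 was not tested. By its median the list deviated from the wild type mean by 0.25 (knockout 1) and 0.16 (knockout 2), and the wild type libraries deviated by 0.04 and -0.04. The wild type values nearly mirror each other because the mean is their own, so they are not a like measure of spread.

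**Figure D4:**
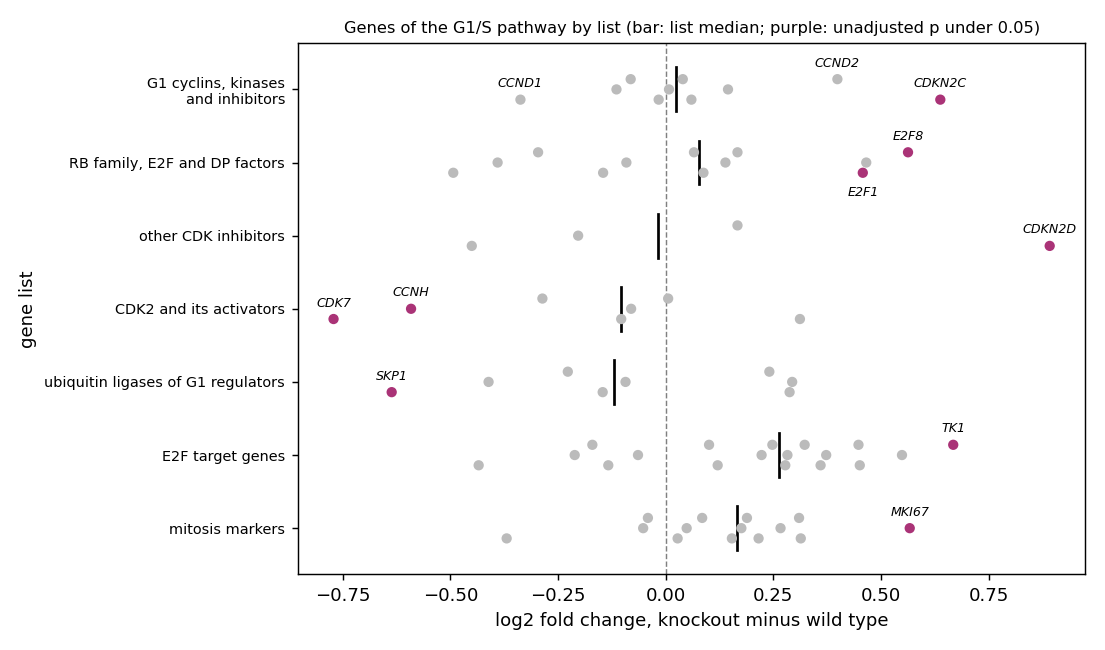
Log2 fold change of knockout against wild type (x axis) for each tested gene, by list (y axis); the bar is the list's median, and purple marks an unadjusted edgeR p under 0.05. Medians run from -0.12 (ubiquitin ligases) to 0.26 (E2F target genes), and no gene passed the adjusted threshold.

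Patterns over the 4 libraries were compared by the Euclidean distance of log2 CPM centred on each gene's mean, each against 72 other genes of the set and the pathway lists, for the 4 genes whose log2 CPM ranged over more than 0.5. Nearest to CDKN2C (range 0.94) was TK1 at a distance of 0.22, followed by MKI67 at 0.27. CCND2 (range 0.69) was nearest to CDC6 (0.18) and E2F1 (0.21). CCND1 (range 0.61) was nearest to TFDP2 (0.16), and CDK6 (range 0.51) to CDKN1C (0.16) and CDK4 (0.18). Of these 4 genes, CDKN2C had the largest distance to its nearest gene. Distances are descriptions over 4 libraries, and for scale the gene farthest from CDKN2C was CDK7 at 1.69. CDK7 was also the farthest from CCND2, at 1.38. Only genes of the set and the pathway lists were compared, so the nearest gene could only be one of these.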

How the data were processed

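Per the labels' protocols, total RNA was isolated using TRIZOL and an RNeasy kit, and an Illumina kit gave the libraries. The authors quantified transcripts using kallisto 0.43.1 and hg38, per the submitters' processing notes, and deposited an estimated count for each. Their TPM column relates these to effective length, per the file headers. No source used here gives the GENCODE release, the run settings or the strand. Kallisto divides fragments between similar transcripts, so values of overlapping genes and single transcripts are less certain.

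Counts were summed per gene, rounded, and tested with edgeR 4.0.16 (quasi-likelihood F test, R 4.3.3) after TMM scaling and filterByExpr (minimum count 10, minimum total 15). This left 18349 genes, with Benjamini-Hochberg adjustment over all of them and a threshold of 0.05. The gene-level fit is two-sided and was tested on simulated data. Transcripts were tested likewise. DESeq2 1.42.0 and limma 3.58.1 gave alternatives, as did other scalings and filters, a replicate block and leaving out each library. Gene positions are from GENCODE 29 (GRCh38). Neighbours were tested genes within 5 Mb with mean log2 CPM above 3. Genes of the pathway lists were named where the unadjusted p was under 0.05. Members and lists were chosen with earlier results of these data known. Fold changes of the limma fits on TPM are on the log2(TPM + pseudocount) scale, where the pseudocount compresses differences at low values, and limma-voom used the counts.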

Additional observations from a re-analysis of the deposited data

How the results depend on the processing

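None of the 10 genes was called in any of 15 alternative analyses, where the smallest adjusted p was 0.427 (CDKN2C, with crossed replicate pairs). CCND1, CCND2, CDKN1B and CDKN2C kept their direction in all 15. Over all genes DESeq2 called 26 higher and 42 lower. With each library left out, where a lone library is assumed to vary like the other genotype, edgeR called 0 to 15 higher and 0 to 10 lower. The calls were 9 higher and 10 lower without wild type 2, and 15 higher and 8 lower without knockout 1. For genes near 0, leaving out each library gave log2 fold changes of -0.15 to 0.10 (CCND3), -0.15 to 0.24 (CCNE1), -0.14 to 0.16 (CCNE2), -0.27 to 0.019 (CDK4), -0.30 to 0.16 (CDK6) and -0.079 to 0.15 (RB1). Limma on log2(TPM + 1) and log2(TPM + 0.1) reversed CCND3 (0.062 and 0.063), CDK4 (0.071 and 0.072) and CDK6 (0.13 and 0.13). Length-scaled TPM counts, added after seeing the data, reversed CDK6 (0.038), and no filter reversed CCNE2 (-0.001). The cause of these reversals was not tested. On gene-summed TPM, also added after seeing the data, CDK4 held 90.8% (wild type) and 90.5% (knockout) of the sum with CDK6, and CDKN2C stood at 13.7% of that sum in knockout libraries.

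With the replicate number as a block, edgeR called 0 genes, and the log2 fold change was 0.66 for CDKN2C (adjusted p = 1.0). The labels give no meaning to the number, and deviations of same-numbered libraries correlated at r = -0.245 across 10899 genes, which are not independent. With the numbers crossed, added after seeing the data, edgeR also called 0. Transcripts of the 10 genes were called 0 times with the block and without any 1 library.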

Other observations

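Of 14 mitosis genes, 11 had a log2 fold change above 0 and 3 below, with a median of 0.16, and edgeR called 0. In 5 genes the knockout values all exceeded the wild type values, and in 0 the reverse held (17.8% and 18.0% of all genes tested). MKI67, the gene of the proliferation antigen Ki-67, had 6456 and 7599 counts (wild type) against 11596 and 10078 (knockout) (log2 fold change 0.57, 95% interval 0.09 to 1.04, edgeR adjusted p = 0.808). It was the only one with an unadjusted p under 0.05. CDK2, the partner of the E-type cyclins, had 1630 and 1580 counts (wild type) against 2120 and 2025 (knockout), a log2 fold change of 0.31 (edgeR adjusted p = 0.881). CDK2 was chosen after its values were seen.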
